A study of Mus musculus with 6 samples.

Results

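Transcripts of the nuclear-encoded subunits of oxidative phosphorylation (OXPHOS) were measured by bulk RNA-seq in cultured mouse primary myoblasts, the progenitors of muscle fibres. A gene was taken as a member when it was annotated as protein-coding and its name began with Ndufa, Ndufb, Ndufc, Ndufs or Ndufv followed by a number (complex I), was Sdha, Sdhb, Sdhc or Sdhd (complex II), or began with Uqcr (complex III), with Cox and a number from Cox4 to Cox8 (complex IV) or with Atp5 (complex V). Of 54532 rows of the table of counts, 85 met this rule, namely 37 for complex I, 4 for complex II, 8 for complex III, 18 for complex IV and 18 for complex V. The rule goes by name, so that Ndufa4, known today as a subunit of complex IV, and its relative Ndufa4l2 stand under complex I, and Cyc1 and Ndufab1 fall outside it. Cox7a2l, a factor of respiratory supercomplexes, stands under complex IV, and Atp5s, a factor that is not a subunit of the enzyme, under complex V.

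Both groups held 3 libraries of proliferating myoblasts at day 2 in medium with FGF, for which the labels give 10 µg/ml. One group is labelled WT and the other eIF5A knockout. The study describes the knockout mice as Pax7CreERT2/+;eIF5A f/f, in which tamoxifen activates Cre only in cells that express Pax7, so that other cells of a culture would keep the gene. The controls are described both as Pax7CreERT2/+ mice without the floxed allele and as Pax7+/+;eIF5A f/f mice, and the sources do not say which of them gave these libraries. The labels give no age of the animals behind these libraries. For the translation assays of the same kind of cells the study used tamoxifen-treated knockouts 3 weeks of age and WT littermates. The study asked which metabolites further the activation of muscle stem cells, and deleted eIF5A, a translation factor, to examine how spermidine acts. No source says whether the 3 libraries of a group came from separate animals, so that the p-values measure the spread between these libraries.

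The respiratory chain passes electrons from NADH through complex I, and from succinate through complex II, by way of complexes III and IV to oxygen, and pumps protons across the inner mitochondrial membrane. Complex V, the ATP synthase, uses that gradient to make ATP. Most subunits are encoded in the nucleus. A small set of those of complexes I, III, IV and V is encoded on mitochondrial DNA (mtDNA), and complex II is wholly nuclear. Muscle relies on OXPHOS, and several subunits of complex IV exist as a ubiquitous isoform and one found mainly in heart and skeletal muscle.

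The libraries held 16281216 to 17734551 counts. The study measured the knockout in muscle stem cells, by RT-PCR and by immunostaining, and judged it successful. In the libraries used here the targeted gene did not show the deletion at the transcript level. Eif5a stood at 1603, 986 and 1238 CPM (counts scaled to library size) in WT and at 1364, 1459 and 1059 CPM in the group labelled eIF5A knockout (log2 fold change 0.02, 95% interval -0.51 to 0.55, edgeR adjusted p = 0.993). The latter group is therefore called the KO-labelled libraries throughout, and the difference between the groups is that between labels. Myogenic markers were present, with 9 of 9 tested and a sum of 1218 to 2086 CPM in WT and 1006 to 1867 CPM in the KO-labelled libraries. All 9 fibroblast markers (2971 to 3619 and 2911 to 3720 CPM) and all 8 endothelial markers (1243 to 2517 and 2157 to 3248 CPM) were also tested, and the endothelial sum was lowest in WT replicate 1. The 8 macrophage markers (54.3 to 125 and 53.9 to 157 CPM) were scarce. Of 6 adipocyte markers 4 were tested (545 to 885 and 620 to 1094 CPM), and Fabp4 alone held most of their sum (520 to 798 and 600 to 1080 CPM). In such bulk samples, fewer cells of a type and less RNA per cell cannot be told apart.

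Of the 85 members, 82 passed the filter on low counts. The other 3 had 0 counts in all 6 libraries. These were Cox7b2 and Cox8c, isoforms known from testis, and a second row named Atp5o (ENSMUSG00000116933), beside the Atp5o row that held the reads (ENSMUSG00000022956). A count of 0 allows up to 3 counts, or 0.159 to 0.194 CPM depending on the library.

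Among the 82 members, WT replicate 1 held the highest CPM of 63 (76.8%), whereas it held the highest value of 27.4% of all 14679 genes tested. WT replicate 2 held the lowest CPM of 47 members (57.3%, against 22.2% of all genes) and eIF5A-KO replicate 3 that of 30 (36.6%, against 14.6%). On the log2(CPM + 0.5) scale, the median member lay 0.43 above its own mean over the 6 libraries in WT replicate 1, with 81 of 82 members above their mean. It lay 0.37 below that mean in WT replicate 2 and 0.31 below it in eIF5A-KO replicate 3, with 5 and 6 members above their mean. In WT replicate 3 and in eIF5A-KO replicates 1 and 2 the median deviations were close to the mean, at 0.0052, 0.13 and 0.064. Thus WT held both the library with the most and the one with the least of these transcripts. Over all genes tested the median deviation was at most 0.0112 in any library.

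**Figure D1:**
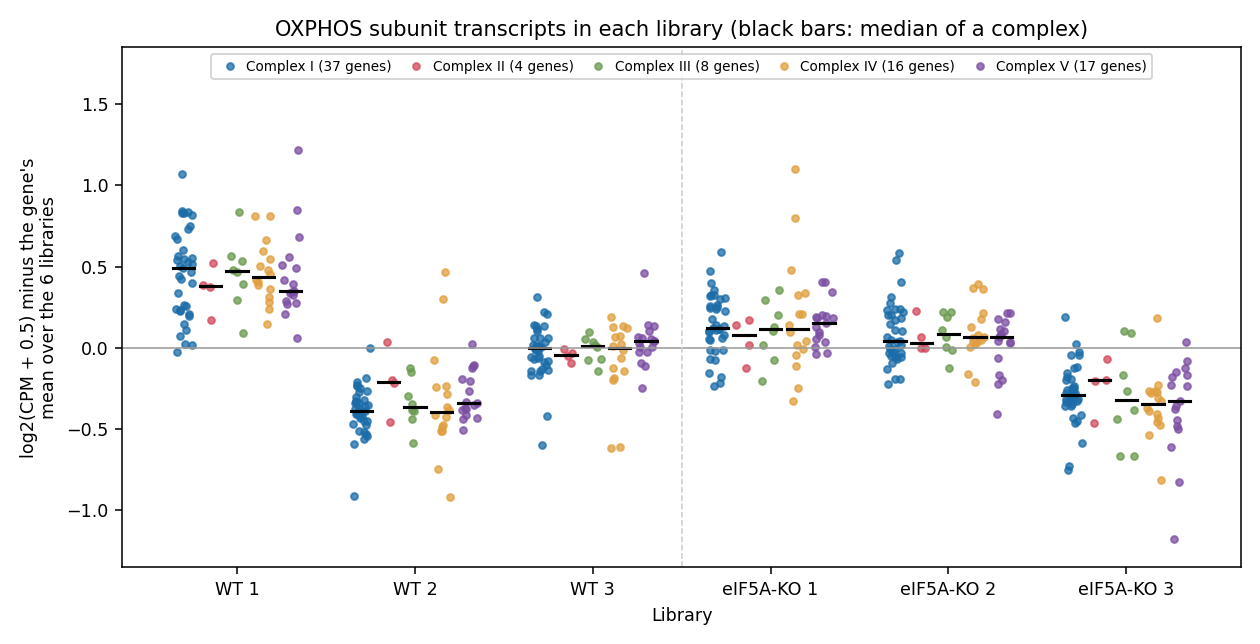
Each point is 1 of the 82 tested subunit genes, as its log2(CPM + 0.5) minus its own mean over the 6 libraries (vertical axis, log2 units), by library (horizontal axis), with colours for the complexes and black bars for the median of a complex. In WT replicate 1 the medians of the 5 complexes lie between 0.35 and 0.49, while in WT replicate 2 and eIF5A-KO replicate 3 all 5 lie below 0.

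The summed CPM was highest in WT replicate 1 in all 5 complexes, and lowest in WT replicate 2 in all but complex II, where eIF5A-KO replicate 3 was lowest. The medians of WT replicate 1 were 0.49 for complex I, 0.38 for complex II, 0.47 for complex III, 0.43 for complex IV and 0.35 for complex V. The nuclear genes of all 5 complexes together took 15809, 9607 and 11854 CPM in WT and 13381, 12826 and 9926 CPM in the KO-labelled libraries, or 1.02% to 1.47% of all counts. Their mean was 12423 ± 3140 CPM in WT and 12044 ± 1855 CPM in the KO-labelled libraries (SD, n = 3). The ratio of these means was 0.97. With WT replicate 1 left out it was 1.13, with WT replicate 2 left out 0.872 and with eIF5A-KO replicate 3 left out 1.06, so that its direction depended on which libraries entered. By complex, the ratio lay between 0.936 for complex II and 0.976 for complex V with all 6 libraries, and between 1.05 and 1.17 without WT replicate 1.

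The 13 subunits encoded on mtDNA were summed in the same way. They took 59077, 24787 and 22730 CPM in WT and 20335, 34056 and 23385 CPM in the KO-labelled libraries. WT replicate 1 was again the highest, and the groups overlapped. The lowest was eIF5A-KO replicate 1, which was second highest for the nuclear subunits. The ratio of mtDNA-encoded to nuclear subunit transcripts was accordingly 3.74, 2.58 and 1.92 in WT and 1.52, 2.66 and 2.36 in the KO-labelled libraries. Within complex IV, whose catalytic subunits are encoded on mtDNA, this ratio ran from 2.59 in eIF5A-KO replicate 1 to 8.16 in WT replicate 1. Of the 12 mtDNA-encoded subunits tested, 0 were higher and 12 lower in the KO-labelled libraries, with a median log2 fold change of -0.38, 11 of them were highest in WT replicate 1, and none had an adjusted p under 0.05. With WT replicate 1 left out, the ratio of the summed mtDNA-encoded CPM between the groups went from 0.73 to 1.09. The share of counts on mtDNA genes was 5.75% for WT replicate 1 and 2.11% to 3.5% for the other 5 libraries, and the part of this difference in the levels of the nuclear subunits was not tested.

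**Figure D2:**
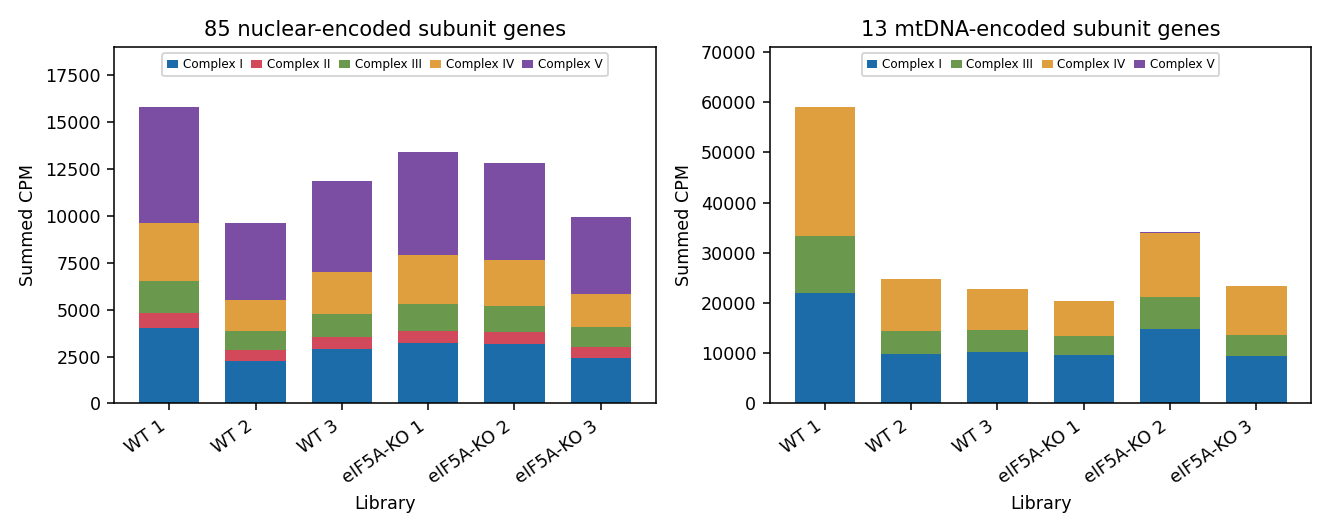
Bars show the summed CPM of the 85 nuclear-encoded (left) and the 13 mtDNA-encoded (right) subunit genes in each library, stacked by complex, on axes that start at 0. WT replicate 1 is the tallest bar on both sides, at 15809 and 59077 CPM, and the shortest is WT replicate 2 on the left (9607 CPM) and eIF5A-KO replicate 1 on the right (20335 CPM).

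Gene length moved with the excess in WT replicate 1. For the 22 members whose gene length in the table was under 1000 bases, the median ratio of WT replicate 1 to the mean of the other WT libraries was 1.8, and for the 60 longer ones it was 1.44. Across the 82 members Spearman's rho of gene length with that ratio was -0.5, a description over genes that share the same 6 libraries. The same tendency was present in all genes tested, with medians of 1.45 for the 963 short ones and 0.974 for the 13716 longer ones, and a rho of -0.379. The smallest ratio was 1.07, for Atp5g2, and the largest 2.78, for Ndufa12. The part of transcript length or RNA quality in these levels was not tested.

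The genes outside the rule whose profile over the 6 libraries was most like the members' mean profile were Pet100 (Pearson's r = 0.996), Calm3 (0.996), Mrpl2 (0.994), Cox14 (0.992) and Dbi (0.991). Pet100 and Cox14 are assembly factors of complex IV, Mrpl2 is a protein of the mitochondrial ribosome, Calm3 encodes calmodulin and Dbi an acyl-CoA binding protein. Pet100 stood at 20.4, 8.38 and 12.3 CPM in WT and at 14.8, 14.0 and 8.16 CPM in the KO-labelled libraries. The members themselves had a median r of 0.903 with that mean, to which each contributes, and r exceeded 0.9 for 42 of 82 members and for 722 of all 14679 genes tested. The 8 members least like the mean were Cox6b2, Cox6a2, Ndufa4l2, Atp5s, Ndufs1, Uqcrc2, Sdha and Cox4i2, with r between 0.361 and 0.5. They include several minor isoforms and some of the larger catalytic or core subunits.

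Between the groups, no member passed the test. None of the 82 had an edgeR adjusted p under 0.05, and the lowest was 0.555, while 3 of all 14679 genes (0.0204%) did. DESeq2 called 0 members and 88 of all genes (0.6%), and 3 members (3.66%, against 6.87% of all genes) had an unadjusted p under 0.05. By limma-voom 0 members and 0% of all genes were called, and 4 members (4.88%, against 6.55%) had an unadjusted p under 0.05. The edgeR test without the filter on low counts called 2 members, Atp5k and Cox4i2, beside 249 of 26956 genes (0.924%). An unadjusted p under 0.05 was found for 4 members (4.88%) against 6.76% of all genes tested. Of these, 2 members were higher in the KO-labelled libraries (background 2.74%) and 2 were lower (background 4.02%). In this fit the shares were not above the background. Without the filter on low counts 12 members (14.6%) had an unadjusted p under 0.05, against 6.32% of all genes, and with the replicate number as a block 5 (6.1%) did, against 5.96%. The number of members with an unadjusted p under 0.05 was 1 (1.22%, against 5.28% of all genes) without WT replicate 3 and 2 (2.44%, against 3.88%) without eIF5A-KO replicate 1. Without WT replicate 2 it was 12, and this share of 14.6% was above the 8.82% of all genes.

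The fold changes were small. The log2 fold change was above 0 for 27 members and below 0 for 55 (67.1%, against 51.7% of all genes tested), with a median of -0.10 against -0.01. It lay within 0.5 of 0 for 75 of the 82. The standard errors ran from 0.157 to 0.469, with a median of 0.249, and the median half-width of a 95% interval was 0.56. The tendency to lower values depended on single libraries. Without WT replicate 1, 13 members were below 0 and the median was 0.16. The medians by complex were then all above 0, at 0.17 for complex I, 0.074 for complex II, 0.16 for complex III, 0.13 for complex IV and 0.096 for complex V, whereas all 5 were below 0 with the 6 libraries. Without eIF5A-KO replicate 3, 39 members were below 0 and the median was 0.0082, with complexes I, IV and V above 0 at 0.045, 0.0056 and 0.030.

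**Figure D3:**
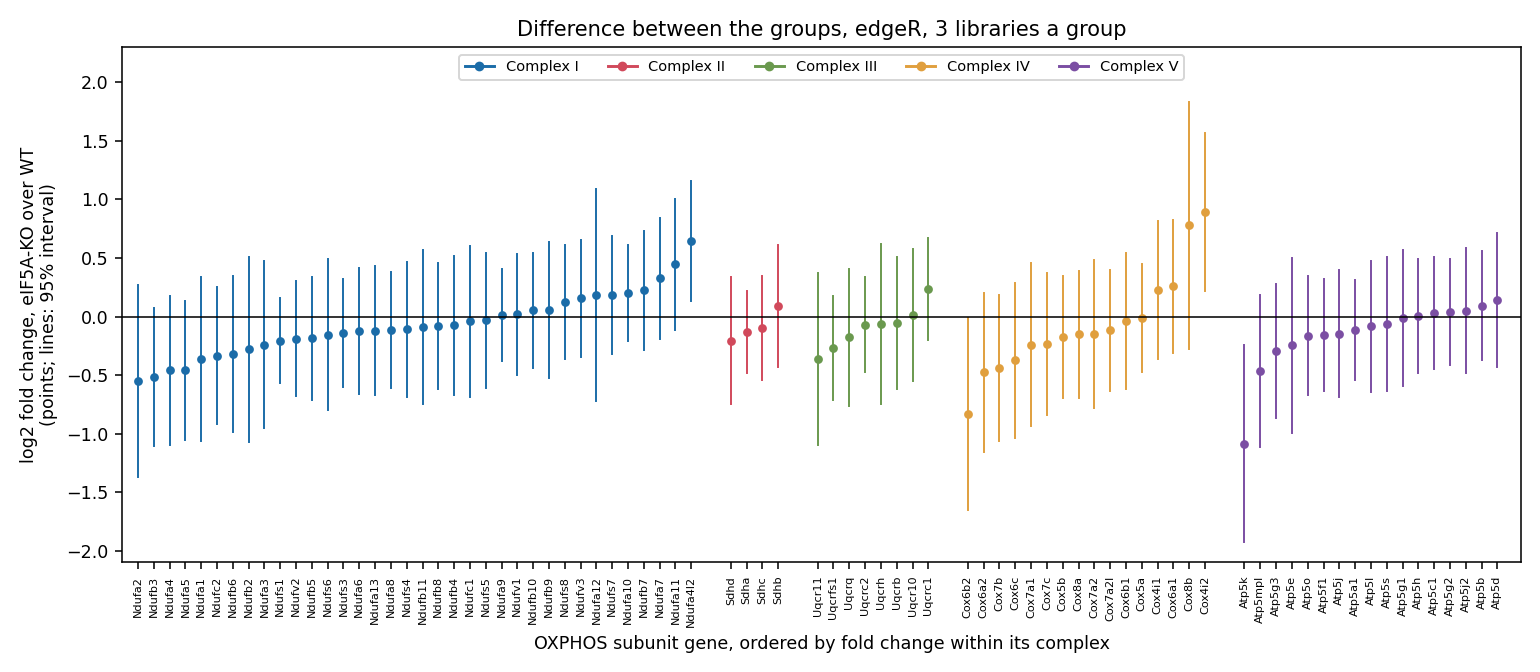
Points give the edgeR log2 fold change of 81 of the 82 tested members, libraries labelled eIF5A-KO over WT, with 95% intervals as lines, ordered within each complex. The intervals of Ndufa4l2, Cox4i2, Cox6b2 and Atp5k leave out 0, and most points lie within 0.5 of it.

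In complex I, 14 of 37 genes were higher and 23 lower in the KO-labelled libraries, with a median of -0.09. Of 6 nuclear subunits of its catalytic core (Ndufs1, Ndufs3, Ndufs7, Ndufs8, Ndufv1 and Ndufv2), most of which carry the flavin or the iron-sulfur clusters, 3 were higher and 3 lower, from -0.21 for Ndufs1 to 0.18 for Ndufs7. They were summed at 701, 474 and 590.5 CPM in WT and 629, 598 and 483 CPM in the KO-labelled libraries. Of the 28 supernumerary subunits, which surround the core, 9 were higher and 19 lower, from -0.55 for Ndufa2 to 0.45 for Ndufa11. The median ratio of WT replicate 1 to the other WT libraries was 1.31 in these core subunits and 1.62 in the supernumerary subunits, a difference that was not tested and in which gene length was not taken into account.

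Per length, in the authors' FPKM (read counts divided by gene length in kilobases and by a size for the library), the most abundant genes under complex I were Ndufa2 at 158, Ndufa4 at 133 and Ndufb11 at 103.5 (means of 6 libraries). Ndufb2 was lowest at 1.01, with a gene length of 5628 bases in the table and Braf among the genes that overlap it. Ndufa2, a supernumerary subunit, stood at 177, 68.2 and 79.7 CPM in WT and at 90.5, 81.4 and 49.7 CPM in the KO-labelled libraries. WT replicate 1 alone was high, and the other 5 libraries overlapped (log2 fold change -0.55 ± 0.37 SE, adjusted p = 0.873). Ndufa4 had 318, 135 and 192 CPM in WT and 157, 170.5 and 141 CPM in the KO-labelled libraries, again with overlap (-0.46 ± 0.28, adjusted p = 0.863). Ndufb11, a supernumerary subunit of the membrane arm, had 139, 63.8 and 90.5 CPM against 96.5, 111 and 67.7 CPM (-0.09 ± 0.29). Ndufs1, the largest subunit of the core, was the only member of complex I whose groups did not overlap, with 109, 91.0 and 93.3 CPM in WT and 77.3, 88.9 and 88.3 CPM in the KO-labelled libraries (log2 fold change -0.21 ± 0.16, adjusted p = 0.906). It was named after its values were seen.

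Complex II, the succinate dehydrogenase that also works in the tricarboxylic acid (TCA) cycle, varied least between libraries. Its 4 genes were summed at 814, 569 and 621 CPM in WT and at 656, 668 and 552 CPM in the KO-labelled libraries, a span of 1.47 times from lowest to highest. Sdha, the flavoprotein that oxidises succinate, was the steadiest, at 246, 224 and 218 CPM and 201, 218.5 and 209 CPM (log2 fold change -0.13 ± 0.16). Sdhb, the iron-sulfur subunit, was the only one above 0 (0.09 ± 0.23). The membrane anchors Sdhc and Sdhd were at -0.10 ± 0.20 and -0.21 ± 0.24. All 4 were highest in WT replicate 1. By FPKM their order was Sdhd at 123, Sdhb at 62.9, Sdha at 52.7 and Sdhc at 40.2, and the ranges of Sdhb, Sdha and Sdhc over the libraries overlapped.

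In complex III, which passes electrons from ubiquinol to cytochrome c, 2 of 8 genes were higher and 6 lower, with a median of -0.07. The largest log2 fold change was that of Uqcrc1, a core protein that faces the matrix, at 0.24 ± 0.19 (adjusted p = 0.91), with 305, 233 and 260 CPM in WT and 352, 334 and 255 CPM in the KO-labelled libraries. Its partner Uqcrc2 was at -0.07 ± 0.18. The other 6 genes, the Rieske protein Uqcrfs1 and the small subunits, were all highest in WT replicate 1, and 5 of them were lower in the KO-labelled libraries. The smallest value was that of Uqcr11, with 152, 64.4 and 85.7 CPM against 92.7, 88.6 and 53.1 CPM (-0.36 ± 0.33, adjusted p = 0.915). The most abundant by FPKM were Uqcr10 at 211, Uqcrh, the hinge protein that binds cytochrome c1, at 146 and Uqcr11 at 138. Uqcr10 and Uqcrh were at 0.01 ± 0.25 and -0.06 ± 0.30.

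In complex IV, cytochrome c oxidase, 4 of 16 tested genes were higher and 12 lower, with a median of -0.15. The largest and the smallest log2 fold change both belonged to minor isoforms, Cox4i2 and Cox6b2. The most abundant were Cox6a1 at 468.5 FPKM, Cox8a at 401 FPKM and Cox4i1 at 305 FPKM. Cox6a1 had 382, 241 and 284 CPM in WT and 452, 375 and 257 CPM in the KO-labelled libraries, which overlapped (0.26 ± 0.25). Cox4i1, the ubiquitous isoform of subunit 4, through which ATP regulates the enzyme, was also highest in a library labelled eIF5A-KO, with 564.5, 333.5 and 421 CPM against 586.5, 596 and 360 CPM (0.23 ± 0.26). Cox8a was at -0.15 ± 0.24 and Cox6b1 at -0.04 ± 0.26. Cox7b had 231, 98.6 and 144.5 CPM in WT and 122, 118 and 109 CPM in the KO-labelled libraries (-0.44 ± 0.28, adjusted p = 0.863). The log2 fold change was -0.060 without WT replicate 1 and -0.69 without WT replicate 2. The libraries labelled eIF5A-KO agreed closely for Cox7b, while WT replicates 1 and 3 lay above and WT replicate 2 below all of them.

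In complex V, 6 of 17 tested genes were higher and 11 lower, with a median of -0.09. The F1 head, which carries the catalytic sites, held the most abundant members. Atp5b, the catalytic beta subunit, was at 381 FPKM, Atp5a1, the alpha subunit, at 297 FPKM and Atp5d, the delta subunit, at 160 FPKM. Atp5b had 1869, 1347 and 1519 CPM in WT and 1856, 1755 and 1440 CPM in the KO-labelled libraries (0.09 ± 0.21). Atp5a1 and Atp5d were at -0.11 ± 0.19 and 0.14 ± 0.25. The 5 genes of the head were summed at 3255 ± 582 CPM in WT and 3299 ± 476 CPM in the KO-labelled libraries. The 4 genes of the peripheral stalk (Atp5f1, Atp5h, Atp5j and Atp5o) were summed at 727 ± 195 and 670 ± 55 CPM, with log2 fold changes from -0.16 to 0.0017. The 3 genes for the rotating c ring, whose mature proteins are alike, were summed at 538 ± 107 and 488 ± 120 CPM. Among the 4 small membrane subunits (Atp5j2, Atp5k, Atp5l and Atp5mpl) the log2 fold changes reached from -1.09 to 0.05.

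Atp5k had the lowest log2 fold change of all members. It encodes subunit e, which takes part in the pairing of ATP synthase into dimers, and its locus is chr5:108433244-108434448, minus strand (mm10). Atp5k stood at 80.7, 31.9 and 47.5 CPM in WT and at 34.5, 25.8 and 14.9 CPM in the KO-labelled libraries. The groups overlapped, since WT replicate 2 lay below eIF5A-KO replicate 1. The log2 fold change was -1.09 ± 0.38 SE (edgeR adjusted p = 0.56). It was -0.66 without WT replicate 1. Without the filter on low counts the adjusted p was 0.000627. Without WT replicate 1, and without eIF5A-KO replicate 3, the unadjusted p was above 0.05. The highest library was WT replicate 1 and the lowest eIF5A-KO replicate 3, as for many members.

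The other 3 members with an unadjusted p under 0.05 were isoforms that are scarce in most tissues. Cox4i2, the isoform of subunit 4 known from lung and from the response to low oxygen, maps to chr2:152754173-152765037, plus strand. It had 17.1, 7.90 and 9.86 CPM in WT and 27.1, 20.3 and 17.5 CPM in the KO-labelled libraries. All 3 of the latter were higher than all of WT, the nearest pair being eIF5A-KO replicate 3 and WT replicate 1 (log2 fold change 0.89 ± 0.30, edgeR adjusted p = 0.555). Cox4i2 was the 1 member higher without overlap (background 5.68%). Its adjusted p was 0.0261 without the filter on low counts and 0.0561 without WT replicate 1. It was 0.946 without WT replicate 3 and 1 without eIF5A-KO replicate 1, where the unadjusted p was above 0.05 too.

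Ndufa4l2, a relative of Ndufa4 that is known as a target of hypoxia-inducible factor, maps to chr10:127514967-127517154, plus strand. It had 51.6, 38.7 and 33.4 CPM in WT and 67.1, 76.5 and 49.9 CPM in the KO-labelled libraries. The groups overlapped by 1 pair, eIF5A-KO replicate 3 and WT replicate 1 (log2 fold change 0.64 ± 0.23, edgeR adjusted p = 0.571). The gene overlaps Shmt2 in the annotation, and the sources used here do not say whether counting used strand. Cox6b2, known as the testis isoform of subunit 6b, maps to chr7:4751792-4753094, minus strand. It had 34, 42 and 28 counts in WT and 19, 25 and 11 counts in the KO-labelled libraries, or 2.20, 2.23 and 1.65 CPM against 1.16, 1.48 and 0.624 CPM. The groups did not overlap (log2 fold change -0.83 ± 0.37, edgeR adjusted p = 0.728). Cox6b2 and Ndufs1 were the 2 members lower without overlap (background 6.83%).

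**Figure D4:**
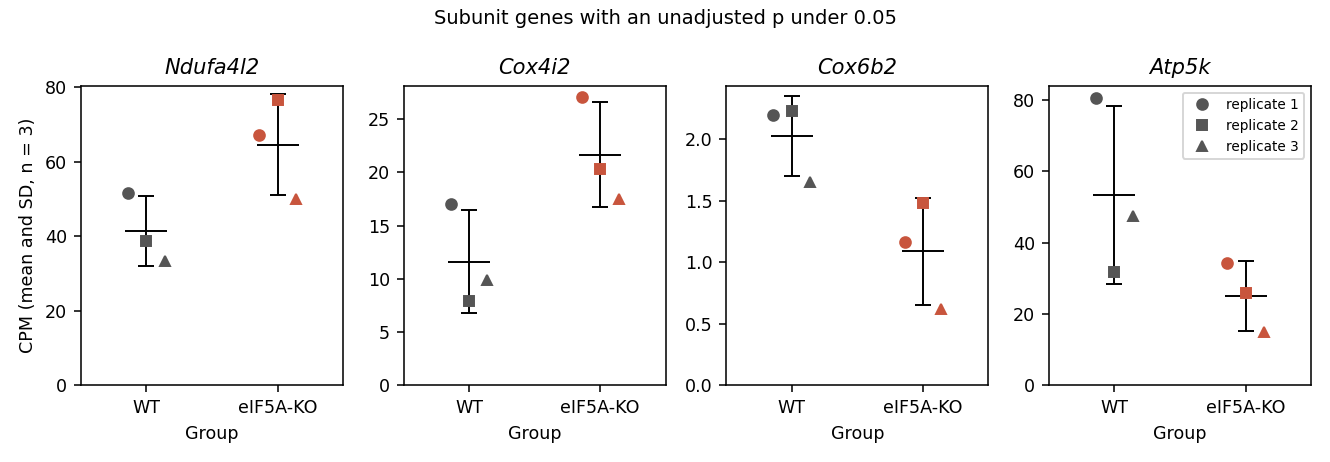
CPM of the 4 members with an unadjusted p under 0.05 in each library, with symbols for the replicate number and horizontal bars and whiskers for the mean and SD of 3 libraries, on axes that start at 0. Cox4i2 and Cox6b2 show no overlap between the groups, and in Ndufa4l2 and Atp5k 1 library of WT lies within the range of those labelled eIF5A-KO.

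Markers of mural cells, the cells that sheathe small vessels, had the same direction between the groups as Cox4i2 and Ndufa4l2. Within WT their order differed, since the mural sum was lowest in WT replicate 1, where both genes were highest. Of 8 mural markers, 7 were tested, 7 were higher and 0 lower in the KO-labelled libraries, and their sum was 360 to 604 CPM in WT and 664 to 756 CPM in the KO-labelled libraries. Myh11, smooth muscle myosin, had 10.5, 11 and 10.5 CPM in WT and 29.2, 28.3 and 34.2 CPM in the KO-labelled libraries (log2 fold change 1.51, edgeR adjusted p = 0.0486). This call was lost with DESeq2's size factors, with library size alone and with at least 10 counts asked for in every library. It was also lost with limma-voom and with limma on log2 FPKM at either pseudocount. The same held when WT replicate 2, WT replicate 3 or any 1 KO-labelled library was left out. In each of these fits 0 genes in all had an adjusted p under 0.05. Pdgfrb and Cspg4 were also higher without overlap, at edgeR adjusted p of 0.398 and 0.577. The groups overlapped for Acta2, Rgs5, Tagln and Mcam, at log2 fold changes of 0.37, 0.17, 0.15 and 0.10, and Cnn1 was near 0 in all 6 libraries. All 8 endothelial markers were higher as well, with a median of 0.45. Muscle differentiation markers moved the other way, with 0 of 10 tested higher and 10 lower, a median of -0.63, sums of 328 to 625 CPM in WT and 236 to 352 CPM in the KO-labelled libraries, and Tnnc2 at 0. The part of these other cells in the levels of Cox4i2, Ndufa4l2 and Cox6b2 was not tested.

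Within an isoform family, the share of each gene in the summed FPKM of the family does not depend on the scaling of the library. Ndufa4l2 made up 17.0%, 26.6% and 18% of the sum with Ndufa4 in WT and 35.1%, 36.1% and 30.9% in the KO-labelled libraries. The means were 20.5% ± 5.27 and 34.0% ± 2.78 (SD, n = 3), and the shares of the groups did not overlap, although the CPM did. Cox4i2 made up 5.61%, 4.45% and 4.40% of the sum with Cox4i1 in WT and 8.33%, 6.28% and 8.74% in the KO-labelled libraries. The shares of Cox6a2, the heart and muscle isoform of subunit 6a, were lower in the KO-labelled libraries, at 0.829% ± 0.233 against 1.39% ± 0.339, without overlap. Cox6b2 took 0.373% ± 0.106 of the sum with Cox6b1 there and 0.718% ± 0.252 in WT. Without WT replicate 2, these differences shrank from -0.565 to -0.369 percentage points for Cox6a2 and from -0.345 to -0.199 for Cox6b2. Both rest on few reads, 38 to 80 counts a library for Cox6a2 and 11 to 42 for Cox6b2. With 3 libraries against 3, the smallest two-sided p of an exact permutation test would be 0.1, and none was run. How often the shares of other gene pairs do not overlap was not counted.

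In the COX8, COX7A and COX7B families the shares overlapped or were nearly constant. Cox8b, the heart and muscle isoform of subunit 8, took 2.62%, 1.86% and 1.70% in WT and 5.58%, 3.44% and 2.56% in the KO-labelled libraries. Its CPM overlapped too (log2 fold change 0.78 ± 0.47, adjusted p = 0.852), with 42 to 152 counts a library. Cox7a1, the muscle isoform of subunit 7a, took 2.06% ± 0.347 and 1.89% ± 0.14, while Cox7a2 and Cox7a2l shared nearly all of the rest in similar parts, with Cox7a2 at 50.3% ± 4.32 and 50.1% ± 2.64. Their log2 fold changes were -0.24 ± 0.31 for Cox7a1, -0.15 ± 0.28 for Cox7a2 and -0.12 ± 0.23 for Cox7a2l. Cox7b held all reads of its family, as Cox7b2 was at 0. Thus the muscle isoforms Cox6a2, Cox7a1 and Cox8b each held at most 5.58% of their family in any library. These are shares in bulk RNA that also held fibroblast and endothelial markers, and which cells gave them was not tested. Among the c ring genes, Atp5g3 took 59.2%, 53.0% and 49.9% in WT and 49.8%, 48.8% and 47.7% in the KO-labelled libraries. These shares did not overlap, but WT replicate 3 and eIF5A-KO replicate 1 were nearly level. The shares of Atp5g2 and Atp5g1 overlapped, at 38.4% ± 4.75 and 7.53% ± 0.528 in WT and 43.0% ± 1.81 and 8.19% ± 0.927 in the KO-labelled libraries. Atp5g3 was the lowest of the 3 in log2 fold change (-0.29 ± 0.25, against 0.04 ± 0.20 for Atp5g2 and -0.01 ± 0.26 for Atp5g1). It was -0.047 without WT replicate 1 and -0.092 without eIF5A-KO replicate 3.

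**Figure D5:**
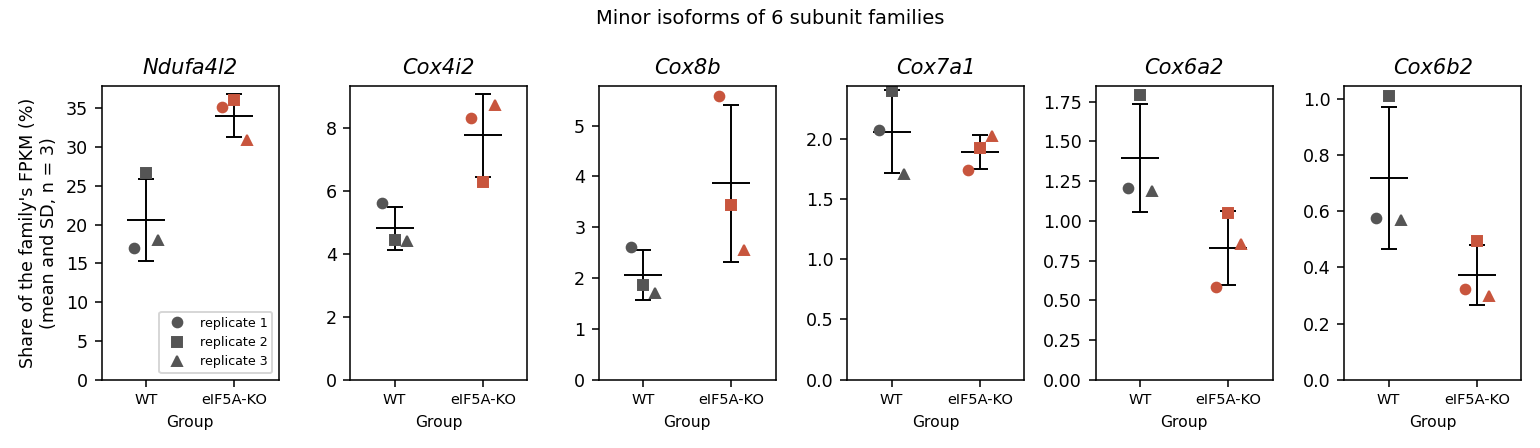
Share of each minor isoform in the summed FPKM of its family (percent, axes from 0), by group, with symbols for the replicate number and bars and whiskers for the mean and SD of 3 libraries. The shares of Ndufa4l2 and Cox4i2 are higher, and those of Cox6a2 and Cox6b2 lower, in every KO-labelled library than in every WT library, and those of Cox7a1 overlap.

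The members' promoters were searched, as a description only, for letters bound by factors known to drive respiratory genes. RefSeq promoters (GRCm38.p6, 250 bases before to 50 after the start) were matched for 66 of the 85 members. The NRF1 letters GCGCANGCG, on either strand, were in 30.3% of them and in 7.03% of the 27025 genes with a promoter. The letters CCGGAAG of ETS factors such as GABP were in 24.2% against 9.93%, and the letters AANATGGCG of YY1 in 15.2% against 2.76%. The letters ACGTG, the core bound by hypoxia-inducible factor, which were added after the values had been seen, were in 24.2% against 21.8%. The promoters of Cox4i2 and Ndufa4l2 were not among those matched and were not searched. The NRF1 letters nearly match their own reverse complement, so that a site is often counted on both strands, and the other motifs do not contain one another. These matches describe letters and not binding.

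The 100 bases before the start are shown for Atp5k and Cox6b2, the members with the lowest log2 fold changes, with the NRF1 letters of both strands in capitals where they occur. The stretch of Atp5k is chr5:108434400-108434499 and that of Cox6b2 chr7:4753095-4753194, both on the minus strand. The RefSeq start of Atp5k lies inside the gene model that goes with the counts, so that its stretch, and most of the capitals, overlap the locus given above.
Atp5k: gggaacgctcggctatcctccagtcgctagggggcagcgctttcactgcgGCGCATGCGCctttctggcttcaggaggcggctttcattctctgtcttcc
Cox6b2: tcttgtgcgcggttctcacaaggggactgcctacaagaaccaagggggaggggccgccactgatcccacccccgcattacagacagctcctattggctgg
Atp5k carries the NRF1 letters once on each strand at 1 place, and Cox6b2, an isoform of restricted tissue range, carries none of the 4 motifs in this stretch.

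The genes that build and feed the complexes were counted in the same fit. Of 46 tested assembly factors, 15 were higher and 31 lower, with a median of -0.16 and none with an adjusted p under 0.05. Cox20 and Atpaf1, which help to assemble complex IV and complex V, were at log2 fold changes of -0.83 and -0.54 (edgeR adjusted p = 0.64 and 0.738), and Pet117 and Sco2 were at 0. WT replicate 1 was the highest library for 32 of the 46. Of the 5 subunits or associated proteins outside the rule (Cyc1, Ndufab1, Cycs, Atpif1 and Usmg5), 2 were higher and 3 lower, 4 were highest in WT replicate 1 and all 5 lowest in WT replicate 2. As a sum, regulators of mitochondrial gene transcription did not share this order. Of 14 tested, 7 were higher and 7 lower, and 4 were highest in WT replicate 1. Their sum was lowest in WT replicate 1, at 568 CPM, and highest in WT replicate 2, at 707 CPM. Gabpb2, a beta subunit of GABP, had 44.9, 66.3 and 52.3 CPM in WT and 29.6, 37.4 and 41 CPM in the KO-labelled libraries (log2 fold change -0.60, edgeR adjusted p = 0.56). Ppargc1a, the coactivator of mitochondrial biogenesis, had 1.16, 1.91 and 1.48 CPM in WT and 2.63, 2.25 and 2.32 CPM in the KO-labelled libraries (log2 fold change 0.62, edgeR adjusted p = 0.799).

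Of 18 genes of the TCA cycle and pyruvate dehydrogenase, 5 were higher and 13 lower, with a median of -0.11. Idh2, the mitochondrial NADP-dependent isocitrate dehydrogenase, had 140, 120 and 120 CPM in WT and 87.7, 93.7 and 57.9 CPM in the KO-labelled libraries (log2 fold change -0.67, edgeR adjusted p = 0.504). Of 18 rows of glycolytic enzymes tested, 12 were higher and 6 lower, with a median of 0.12. Among them, 2 rows were named Aldoa, 1 at 1140 to 1660 CPM that was higher and 1 at 0.413 to 1.43 CPM that was lower, and Aldoc did not pass the filter on low counts. Eno3, the muscle enolase, had 150, 162 and 116 CPM in WT and 89.9, 79.0 and 52.0 CPM in the KO-labelled libraries (log2 fold change -0.95, edgeR adjusted p = 0.396). Neither list held a gene with an adjusted p under 0.05, against 0.0204% of all genes.

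How reads were assigned bears on some of these values. Of the 82 members, 36 had another annotated gene with a stretch of at least 200 bases at 90% identity or more, in 29 cases a pseudogene, and Atp5l had 14 such copies. For 10 members, the copies held counts of more than 5% of the member's own in some library, with 45.4% for Ndufb5, 40.8% for Atp5l, 38.6% for Ndufa12 and 33.1% for Atp5g1. The levels of these genes are uncertain, because the sources used here do not say how reads that fit several places were counted. A further gene overlapped 36 of the 82 members, among them Ndufa2, Ndufa4l2, Ndufb2, Cox4i1, Cox6a2 and Atp5d. Atp5k had 1 such copy, a pseudogene, at 0.0801% of its counts, and Cox4i2 and Cox6b2 had neither a copy nor an overlapping gene.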

How the data were processed

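RNA-seq of 6 libraries, 3 per group, was analysed. Per the labels, total RNA was taken with TRIzol, libraries were made with an NEBNext Ultra kit and reads were mapped to mm10 with HISAT. The authors deposited raw counts and, in a second table, FPKM. The counting rules, strand setting and annotation are not given in the sources used here. The deposited FPKM equalled the count divided by gene length and 1 constant per library.

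The counts were tested with edgeR 4.0.16 in R 4.3.3 (filterByExpr, TMM factors, prior count 2, quasi-likelihood F test, Benjamini-Hochberg adjustment over 14679 genes, threshold 0.05), without covariates. CPM use TMM factors, profiles use log2(CPM + 0.5), errors are SD or, after a log2 fold change, SE, and intervals are at 95% with the moderated degrees of freedom. The biological coefficient of variation was 0.239. The fit was first tested on simulated data. Alternatives were DESeq2 1.42.0, limma 3.58.1 (voom, or log2 FPKM with a pseudocount of 1 or 0.1), other scalings and filters, a replicate block and each library left out. Copies were sought with blastn 2.17.0. Reads carry no molecular identifiers, so that the limit for a count of 0 covers counting error only.

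The members and the 13 lists were chosen with earlier results of these data known. Genes were named by rule: the 3 most abundant members of each complex by FPKM, its largest and smallest log2 fold change, every member with an unadjusted p under 0.05, all members of the isoform families, and the 5 genes most like the mean profile. The division of members by role, and the names of Ndufs1, Ndufb2, Ndufs7 and Ndufa11 and of list genes, came after the values were seen. Of the members, 1 entered the counts, sums and medians over all members and by complex, but was left out of the division by role and is not reported here by name.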

Additional observations from a re-analysis of the deposited data

How the results depend on the processing

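Under the 11 alternatives that kept all libraries, the median log2 fold change of the members stayed below 0, WT replicate 1 stayed the highest library for 60 to 65 of the 82 members under each scaling, and members with an adjusted p under 0.05 numbered 0, except without the filter on low counts, where they were 2 and those below the unadjusted threshold numbered 12 (14.6%, against 6.32% of all genes). The cause was not tested. Leaving out 1 library gave 1 to 12 members with an unadjusted p under 0.05, beside 3.88% to 10.2% of all genes, and 13 to 69 below 0, each time with 0 past the adjusted threshold. The 12 (14.6%, against 8.82% of all genes) were found without WT replicate 2. Uqcr10 went to -0.0069 with library size alone.

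The direction of 17 of the 30 named members turned when 1 library was left out. The log2 fold changes then ran from -0.19 to 0.0084 for Atp5a1, -0.0076 to 0.24 for Atp5b, -0.031 to 0.35 for Atp5d, -0.24 to 0.20 for Atp5g1, -0.053 to 0.21 for Atp5g2, -0.22 to 0.19 for Cox6b1, -0.39 to 0.059 for Cox7a1, -0.39 to 0.17 for Cox7a2, -0.26 to 0.15 for Cox7a2l, -0.31 to 0.088 for Cox8a, -0.79 to 0.0056 for Ndufa2, -0.32 to 0.26 for Ndufb11, -0.090 to 0.34 for Sdhb, -0.34 to 0.046 for Sdhd, -0.17 to 0.25 for Uqcr10, -0.60 to 0.065 for Uqcr11 and -0.25 to 0.23 for Uqcrh. Without a turn, they ran from -0.42 to -0.047 for Atp5g3, -0.69 to -0.060 for Cox7b, -0.71 to -0.060 for Ndufa4, -0.73 to -0.31 for Cox6a2, 0.063 to 0.45 for Cox4i1, 0.076 to 0.47 for Cox6a1, 0.29 to 1.27 for Cox8b, -0.17 to -0.070 for Sdha and 0.15 to 0.37 for Uqcrc1. Ndufa4l2, Cox4i2, Cox6b2 and Atp5k kept their direction under all 17 alternatives. Their unadjusted p, by which they were named, was above 0.05 in 2 of these for Ndufa4l2, 2 for Cox4i2, 2 for Atp5k and 6 for Cox6b2, all by leaving out 1 library except DESeq2 for Cox6b2.

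The groups share replicate numbers 1 to 3, but no source says what a number stands for. Same-numbered libraries deviated together with r of 0.094, -0.196 and 0.109, so that the numbers were not taken as pairs. With the replicate number as a block, 0 members had an adjusted p under 0.05, 5 an unadjusted p under 0.05, 53 were below 0 and the median was -0.078. No group was large enough to look for outlying libraries by a test, and 3 libraries a group limit the precision.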

Other observations

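Genes named like subunits but not annotated as protein-coding were left out of the members. The 1 with most reads was Ndufb1-ps, classed as a long non-coding RNA at a bidirectional promoter, with 1044, 543 and 785 counts in WT and 619, 617 and 561 counts in the KO-labelled libraries. Its order over the WT libraries was that of most subunits. The processed pseudogenes among them held at most 55 counts in a library (Ndufs6b).

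The mtDNA-encoded subunits were counted very unevenly. The subunits of complex IV encoded there stood at 25200, 10200 and 7920 CPM for mt-Co1 in WT, at 135, 34.2 and 53.7 CPM for mt-Co2 and at 202, 43.9 and 25.9 CPM for mt-Co3. The gene mt-Atp6, a subunit of complex V, had 132, 19.5 and 17.8 CPM in WT and 28.3, 41.1 and 14.6 CPM in the KO-labelled libraries. In complex I, mt-Nd4l had 9.82, 3.24 and 2.72 CPM in WT and 1.84, 2.61 and 1.64 CPM in the KO-labelled libraries, without overlap (log2 fold change -1.32, edgeR adjusted p = 0.611). How reads that also fit nuclear copies of mtDNA were counted is not given in the sources used here, and their part in these levels was not tested.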
